A study of Homo sapiens with 4 samples.

Results

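RAB GTPases are the largest branch of the RAS superfamily of small GTP-binding proteins. Each RAB is anchored to a membrane by prenyl groups, is switched on by an exchange factor and off by a GTPase activating protein, and recruits effectors that tether, move or fuse vesicles of its own compartment. In liver-derived cells they run the traffic of secreted plasma proteins, of endocytosed receptors, of bile canalicular proteins and of lipid droplets. The genes described here were all protein-coding genes with a symbol of RAB followed by a digit, with RAB effectors and regulators such as RAB11FIP and RAB3GAP genes left out. RefSeq held 64 such genes, and 45 of them had at least 1 listed splicing event, of 11931 Ensembl genes with an event. They held 622 of the 287868 distinct events of the series.

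The series compared long-read transcripts of Huh7 cells, a human hepatocellular carcinoma line, after transfection with an siRNA against STAMBPL1 (siSTAMBPL1, 2 libraries) or with a negative control siRNA (siNC, 2 libraries). The cells of all 4 libraries were grown in DMEM with 10% serum, and cells of both groups went through transfection with the same lipid reagent, so no untransfected cells were compared. STAMBPL1 removes ubiquitin chains from proteins and belongs to the same family as the endosomal enzyme STAMBP. Total RNA was copied into full-length cDNA and sequenced on a PacBio Sequel instrument. The labels do not say whether the 2 replicates of a group were separate cultures, so the p-values below measure only the spread between these libraries, which may be technical.

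The values were lists of splicing events, 1 list per library. An event sets 2 forms of a transcript against each other, such as an exon included or skipped, and names the transcripts that carry each form. Transcripts are Ensembl transcripts or transcripts assembled from the long reads (long-read transcripts below). Ensembl transcripts are not counted among the long-read transcripts. A form without a long-read transcript may thus still have been present as an Ensembl transcript. The lists hold no read number, so a value below is a number of events or of long-read transcripts, not a level of expression, and fewer cells with a transcript cannot be told apart from fewer copies per cell. There were 119505 and 94432 events with 25463 and 17584 long-read transcripts in siSTAMBPL1 replicates 1 and 2, against 140317 and 142215 events with 32307 and 32750 long-read transcripts in siNC replicates 1 and 2. Replicate 2 of siSTAMBPL1 stood apart as the smallest list. STAMBPL1 itself had 1 and 1 events and no long-read transcript in the siSTAMBPL1 libraries, against 3 and 6 events and 1 and 4 long-read transcripts in the siNC libraries, which runs the way of the labels (log2 change in scaled events -1.14, limma adjusted p = 0.744). Of 16 hepatocyte markers, 13 had no event in any library, among them ALB, AFP, APOA1, APOB, TTR and SERPINA1. Summed over the list, hepatocyte markers had 5 and 4 events in siSTAMBPL1 against 8 and 11 in siNC libraries. Of 10 markers of other cell types, 8 had no event, including PTPRC, PECAM1 and COL1A1, and the sum was 2 and 2 against 6 and 2. Epithelial markers had 19 and 27 events against 14 and 22, so the groups overlapped. KRT8 was higher, with 16 and 22 events against 9 and 10 (log2 change 1.30, limma adjusted p = 0.599). KRT18 was lower, with 1 and 3 against 2 and 10 (log2 change -0.71). EPCAM had 2 and 2 against 3 and 2, and CDH1 had no event. Absence from a list is not absence of RNA, since a gene is listed only where 2 forms can be compared, and the part of these markers in any result was not tested.

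There were 305 and 213 RAB events in siSTAMBPL1 replicates 1 and 2, against 305 and 325 in siNC replicates 1 and 2, or 259 ± 65.1 against 315 ± 14.1 (SD, n = 2 each). The groups met at 305. The ratio of group means was 0.822 for RAB events and 0.757 for all events, and without siSTAMBPL1 replicate 2 the RAB ratio was 0.968. As a share of all events, RAB events made up 0.255% and 0.226% in siSTAMBPL1 libraries and 0.217% and 0.229% in siNC libraries. The number of RAB genes on a list hardly varied, with 40 and 38 in siSTAMBPL1 and 39 and 41 in siNC. Long-read transcripts of RAB genes numbered 82 and 48 in siSTAMBPL1 libraries, against 74 and 92 in siNC libraries. They carried 70.8% and 64.3% of RAB events in siSTAMBPL1, against 65.3% and 71.7% in siNC, where all genes had 73.8% and 68.9% against 76.9% and 77.0%.

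**Figure D1:**
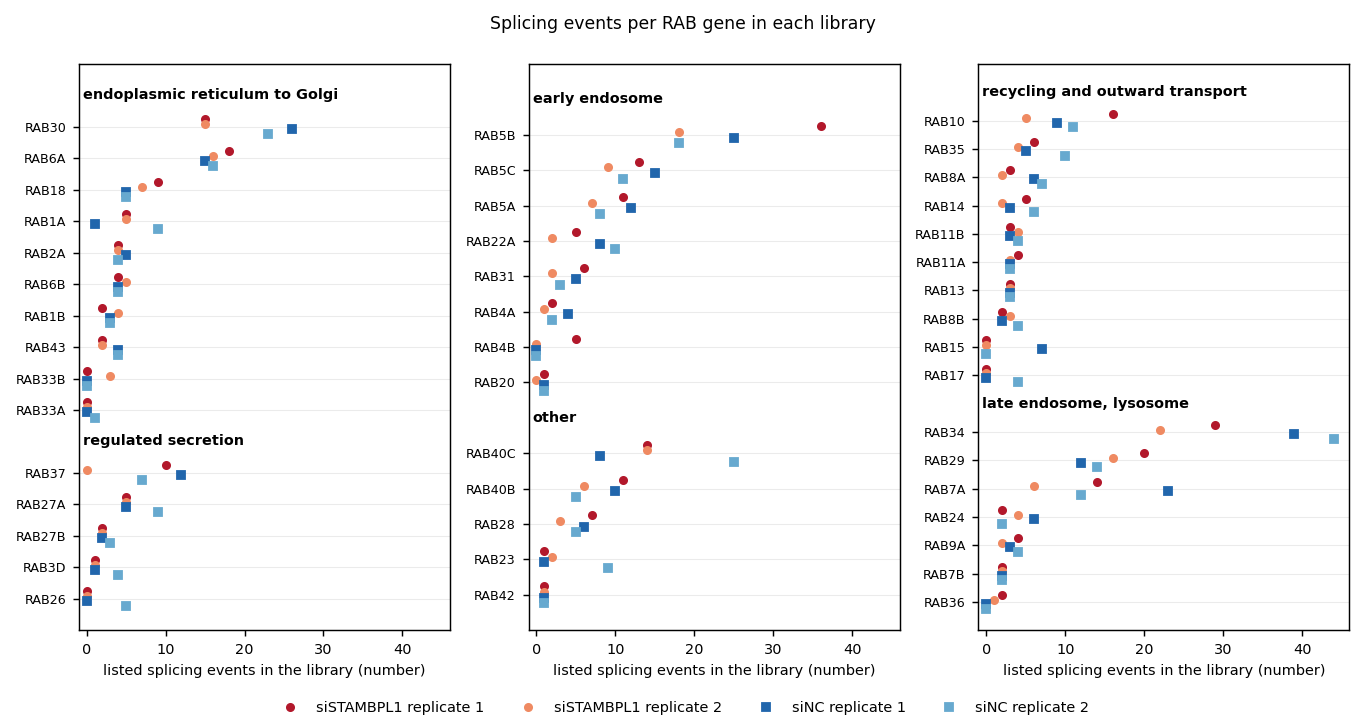
Number of listed splicing events (x axis) of each of the 45 RAB genes (rows), grouped by the step of membrane traffic they serve. Circles are the siSTAMBPL1 libraries and squares the siNC libraries. RAB34 and RAB5B reach the highest numbers, with 44 events in siNC replicate 2 and 36 in siSTAMBPL1 replicate 1, and most other genes stay under 20.

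Skipped exons were the most common RAB event, where first exons led over all genes. Of the 622 distinct RAB events, 187 were skipped exons (30.1%, against 18.2% over all genes) and 178 were alternative first exons (28.6%, against 49.3%). Alternative 3' splice sites gave 64 events, alternative last exons 63, alternative 5' splice sites 57, retained introns 40 and mutually exclusive exons 33. Skipped RAB exons had a median length of 108 bases, and 64 of 187 were a multiple of 3 long (34.2%), against 40.1% over all genes. The last exons were the type whose share differed most between the groups. They numbered 15 and 3 in siSTAMBPL1 replicates 1 and 2, against 30 and 22 in siNC replicates 1 and 2. As shares of RAB events these were 4.92% (exact 95% interval 2.78 to 7.98) and 1.41% (0.29 to 4.06), against 9.84% (6.74 to 13.7) and 6.77% (4.29 to 10.1), and the groups did not overlap. The shares of RAB first exons, 3' splice sites and 5' splice sites did not overlap either. Their differences of means (siSTAMBPL1 minus siNC) were 3.27, -1.25 and 2.34 percentage points. Over all genes these were -2.76, 0.64 and 0.62 points, so first exons and 3' splice sites went the opposite way. The groups did not overlap for any type over all genes. The intervals cover counting error only, and events of 1 transcript are not independent. For last exons the difference of means was -5.14 percentage points over RAB genes and -0.21 over all genes. It was -3.13 points without RAB7A, the gene with 24 of these 63. Where Ensembl knew both forms it was -0.47 points. With 2 libraries against 2, an exact two-sided permutation test cannot go below 0.333, so no type was tested.

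**Figure D2:**
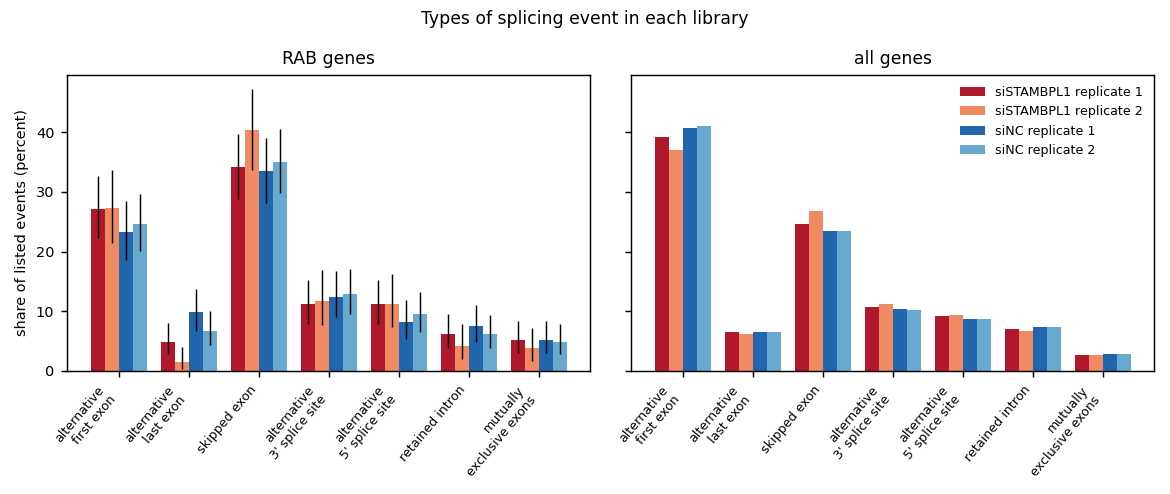
Share of each type of event (percent of the library's events, y axis) over RAB genes (left) and all genes (right), with siSTAMBPL1 bars left of siNC bars. Error bars are exact 95% binomial intervals of the RAB shares. Last exon events make up 4.92% and 1.41% of RAB events in siSTAMBPL1 against 9.84% and 6.77% in siNC libraries, while over all genes the 4 libraries lie close together.

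Most RAB events were seen in 1 library, and what all libraries shared was mostly known annotation. Of the 622 events, 393 were on 1 list (63.2%, against 66.1% over all genes) and 129 on all 4 (20.7%, against 16.03%). Both forms were known to Ensembl for 208 events, and 117 of these were on all 4 lists. Of the 414 events in which a form was known from long-read transcripts alone, 346 were on 1 list and 12 on all 4. These 12 lay in RAB18, RAB29, RAB34, RAB5B and RAB7A. When coordinates within 10 bases were taken as the same, 539 events were left, 296 on 1 list and 128 on all 4. The overlap of lists (shared events over all events of a pair) was 0.404 between the siSTAMBPL1 libraries, 0.361 between the siNC libraries and 0.372 to 0.406 between libraries of different groups. The pair of siSTAMBPL1 lists thus lay within the range of mixed pairs, and the pair of siNC lists just below it.

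**Figure D3:**
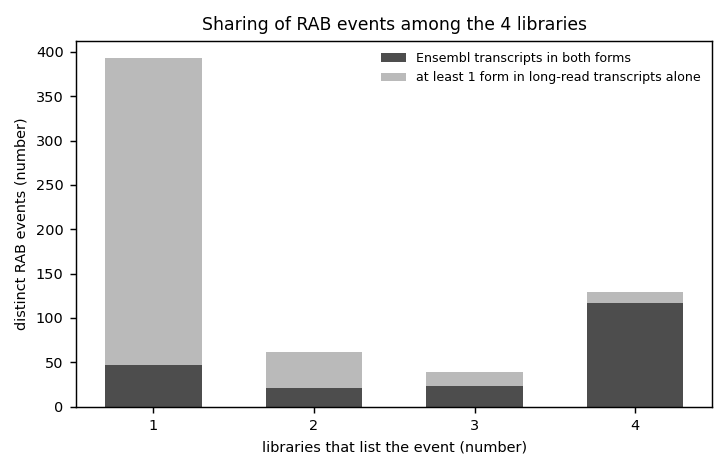
Number of distinct RAB events (y axis) on 1, 2, 3 or 4 of the lists (x axis). Dark parts are events with Ensembl transcripts in both forms, and light parts those with a form known from long-read transcripts alone. Of 393 events on 1 list 346 are of the light kind, and of 129 on all 4 lists 117 are of the dark kind.

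The first exons of listed events give 5′ ends of Ensembl or long-read transcripts. Whether such an end is a start of transcription in these cells was not tested. An Ensembl start can be on a list without a long-read transcript that carries it. First exon events gave 166 distinct start positions in 27 RAB genes. For 148 of them the gene had a start in RefSeq's promoter set, and 94 (63.5%) lay within 50 bases of it. Among them were 79 starts of long-read transcripts alone, 74 of which were on 1 list and 0 on all 4, and 57 of the 77 with a start in the promoter set (74.0%) lay within 50 bases of it. Starts of Ensembl transcripts numbered 87, of which 47 were on all 4 lists. Such clusters of starts are shown for RAB6A, a Golgi RAB, RAB5B, an early endosome RAB, and RAB10, a RAB of transport to the plasma membrane. The stretches run 5′ to 3′ on the strand of the gene, from RefSeq (GRCh38.p14), over 120 bases before and 30 from the RefSeq start, and capitals mark bases at which a listed first exon began in at least 1 library.
RAB6A upstream promoter, chr11:73761045-73761194, minus strand: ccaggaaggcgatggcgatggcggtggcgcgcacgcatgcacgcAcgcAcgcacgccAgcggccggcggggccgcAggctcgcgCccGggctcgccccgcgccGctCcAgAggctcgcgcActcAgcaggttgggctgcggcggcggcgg
RAB6A downstream promoter, chr11:73760066-73760215, minus strand: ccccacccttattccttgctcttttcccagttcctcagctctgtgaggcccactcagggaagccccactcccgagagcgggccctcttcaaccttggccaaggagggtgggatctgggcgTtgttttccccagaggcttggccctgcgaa
RAB5B upstream promoter, chr12:55973829-55973978, plus strand: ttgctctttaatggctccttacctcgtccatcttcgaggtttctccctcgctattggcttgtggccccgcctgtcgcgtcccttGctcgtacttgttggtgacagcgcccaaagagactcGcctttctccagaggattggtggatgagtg
RAB5B downstream promoter, chr12:55973958-55974107, plus strand: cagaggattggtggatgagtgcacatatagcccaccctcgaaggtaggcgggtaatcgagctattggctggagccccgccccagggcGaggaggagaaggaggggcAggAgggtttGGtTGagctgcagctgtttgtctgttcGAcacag
RAB10 promoter, chr2:26033964-26034113, plus strand: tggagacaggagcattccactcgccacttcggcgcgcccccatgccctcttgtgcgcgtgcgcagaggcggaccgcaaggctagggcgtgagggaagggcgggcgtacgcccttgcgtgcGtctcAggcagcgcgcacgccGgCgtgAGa
The upstream RAB6A window held 12 listed starts and the downstream window 1, at 73760095, which was on all 4 lists. The windows of RAB5B held 2 and 9 starts. In RAB10, 6 starts fell in the window. The start at 26034084 was on all 4 lists, with a long-read transcript in siSTAMBPL1 replicate 1 alone. All 4 lists also held a RAB10 first exon at 26098530, which lies 64446 bases downstream. It was listed as the Ensembl form of these events, and no long-read transcript of a listed first exon event carried it. Over the whole promoter windows of RefSeq, the letters GGGCGG, searched on both strands, were found in 75.0% of 56 windows of 36 RAB genes and in 45.0% of all 35116 windows. TATAAA, which shares no stretch with it, was found in 5.4% against 11.5% of windows. Median GC content was 65.0% in the RAB windows and 58.7% in all windows.

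RABs of the endoplasmic reticulum and the Golgi had 119 distinct events in 10 of 13 genes, with 59 and 61 listed in siSTAMBPL1 libraries against 63 and 69 in siNC libraries. RAB6A, which acts in transport from and within the Golgi, had 18 and 16 events in siSTAMBPL1 replicates 1 and 2, against 15 and 16 in siNC replicates 1 and 2. Its best known choice of splicing is a pair of mutually exclusive exons that gives the proteins RAB6A and RAB6A′. Both exons were 106 bases long, at chr11:73718613-73718718 and chr11:73718785-73718890 on the minus strand (hg38), and the event was on all 4 lists. The exon with the lower coordinates was carried by 1 and 3 long-read transcripts in siSTAMBPL1 libraries, against 2 and 3 in siNC libraries. The other exon was carried by 2 and 1, against 1 and 0. Both exons were thus used in both groups, and siNC replicate 2 alone had no long-read transcript with the second. An exon of 96 bases at chr11:73679832-73679927 (minus strand), in no Ensembl transcript with these neighbours, was included by 1 long-read transcript in each siSTAMBPL1 library and was not listed in siNC libraries.

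RAB18, which sits on the endoplasmic reticulum and on lipid droplets, had 9 and 7 events in siSTAMBPL1 replicates 1 and 2, against 5 and 5 in siNC replicates 1 and 2, and the groups did not overlap. It had the highest log2 change of the RAB genes with events in all libraries, 0.93 ± 0.278 (SE), with a limma p of 0.0269 that was 0.617 after adjustment. The change was 0.58 without scaling and 0.29 where Ensembl knew both forms. The 5 siNC events were those on all 4 lists, and the additional ones in siSTAMBPL1 libraries were each on 1 list. An 87-base exon of RAB18 at chr10:27531529-27531615 (plus strand) was skipped by 1 and 3 long-read transcripts in siSTAMBPL1 and by 2 and 1 in siNC libraries. No long-read transcript included it, but 2 Ensembl transcripts of the event do. A RAB18 intron of 74 bases was retained by 1 and 1 long-read transcripts in siSTAMBPL1 against 2 and 1 in siNC libraries, and spliced out by 1 and 2 against 0 and 0.

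RAB30, a Golgi RAB, had 15 and 15 events in siSTAMBPL1 libraries, against 26 and 23 in siNC libraries. The 15 events on both siSTAMBPL1 lists were on all 4 lists, and none of them held a long-read transcript there. The surplus in siNC replicate 1 was of first exons (19 events, against 9 and 9 in siSTAMBPL1 and 10 in siNC replicate 2). That in siNC replicate 2 held 6 last exon events, all of which set the same 176-base exon at chr11:82984421-82984596 (minus strand), found in 1 long-read transcript, against the ends of other transcripts. RAB1A, needed for transport from the endoplasmic reticulum to the Golgi, had 5 and 5 events in siSTAMBPL1 against 1 and 9 in siNC libraries, so siNC libraries lay on both sides. Its log2 change was 0.75 ± 0.837 with all libraries and -0.37 without siNC replicate 1. A long-read transcript without the 96-base exon at chr2:65090983-65091078 (minus strand) was found in siSTAMBPL1 replicates 1 and 2 and in siNC replicate 2. RAB1B, its close relative, included a 96-base exon at chr11:66272365-66272460 (plus strand) in 1 and 2 against 1 and 1 long-read transcripts. No long-read transcript skipped it, but 1 Ensembl transcript of the event does. RAB43 had 2 and 2 events against 4 and 4. The others of the group were RAB2A with 4 and 4 against 5 and 4, RAB6B with 4 and 5 against 4 and 4, and RAB33A and RAB33B, each on 1 list only.

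Early endosome RABs had 156 distinct events in 8 of 9 genes, 79 and 39 in siSTAMBPL1 against 70 and 53 in siNC libraries. RAB5A, RAB5B and RAB5C, which drive fusion of early endosomes, held most of them. RAB5B had 36 and 18 events in siSTAMBPL1 replicates 1 and 2, against 25 and 18 in siNC replicates 1 and 2. The high value of siSTAMBPL1 replicate 1 was of first exons, with 17 events there, 4 in the other siSTAMBPL1 library and 5 and 6 in siNC libraries. RAB5B thus overlapped between groups as listed, and its log2 change after scaling was 0.65 ± 0.361 (limma adjusted p = 0.765). It was 0.33 without siSTAMBPL1 replicate 1, 0.41 without siNC replicate 2 and 0.25 where Ensembl knew both forms. A 103-base exon of RAB5B at chr12:55979372-55979474 (plus strand) was included by 1 long-read transcript in every library and skipped by 2 and 1 in siSTAMBPL1, against 2 and 1 in siNC libraries. RAB5C had 13 and 9 events in siSTAMBPL1 against 15 and 11 in siNC libraries, and RAB5A had 11 and 7 against 12 and 8. For RAB5A, all 5 last exon events were on the list of siNC replicate 1 and came from 1 long-read transcript that ended at chr3:19979004-19979697 (plus strand). An exon of 120 bases at chr3:19979000-19979119 was included by 1 long-read transcript in each siNC library. With a 3' splice site 4 bases away (116 bases), the exon was included by 1 in siSTAMBPL1 replicate 1, so the events differ but the exon was seen in both groups.

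RAB22A, which acts in sorting from early endosomes, had 5 and 2 events in siSTAMBPL1 replicates 1 and 2, against 8 and 10 in siNC replicates 1 and 2, and the groups did not overlap (log2 change -0.90 ± 0.402, limma adjusted p = 0.765). Without siSTAMBPL1 replicate 2 the change was -0.52. Its 110-base exon at chr20:58354156-58354265 (plus strand) was included by 2 and skipped by 2 long-read transcripts in siSTAMBPL1 replicate 1, and the event was not listed in replicate 2. In siNC replicates 1 and 2 the exon was included by 6 and 6 and skipped by 2 and 1 long-read transcripts. A 249-base exon at chr20:58349630-58349878 was in no Ensembl transcript of its events. Joined to the donor at 58343799, it was carried by 1 long-read transcript in siSTAMBPL1 replicate 2 and by 1 in each siNC library. In siNC replicate 2, another long-read transcript joined it to the donor at 58311122. RAB4B, a RAB of rapid recycling, had 5 and 0 events against 0 and 0, all between Ensembl transcripts, so its log2 change of 1.32 ± 1.10 rested on 1 library. RAB4A had 2 and 1 events against 4 and 2, RAB31 had 6 and 2 against 5 and 3, and RAB20 had 1 and 0 against 1 and 1.

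Recycling and outward transport was served by 10 of 12 genes with 81 distinct events, 42 and 26 in siSTAMBPL1 against 41 and 52 in siNC libraries. RAB8A, which carries cargo to the plasma membrane and to cilia, had 3 and 2 events in siSTAMBPL1 replicates 1 and 2, against 6 and 7 in siNC replicates 1 and 2. The groups did not overlap, with a log2 change of -0.79 ± 0.320 (limma adjusted p = 0.736). An exon at chr19:16129554-16129604 (plus strand, 51 bases) was skipped by 1 long-read transcript in each siNC library, and the event was not listed in siSTAMBPL1 libraries. An intron of RAB8A of 499 bases at chr19:16127527-16128025 was retained in 1 long-read transcript of each siNC library and likewise not listed in siSTAMBPL1 libraries. On all 4 lists, RAB8A held 1 event, a choice of 3' splice sites 20 bases apart, with the longer exon in 2 and 1 against 2 and 2 long-read transcripts.

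RAB10, which moves vesicles to the basolateral membrane, had 16 and 5 events against 9 and 11, so siNC values lay between those of siSTAMBPL1. RAB11A, the RAB of the recycling endosome, had 4 and 3 events in siSTAMBPL1 against 3 and 3 in siNC libraries (log2 change 0.47 ± 0.330). RAB15, a RAB of recycling endosomes, had 7 events in siNC replicate 1 and none elsewhere, and RAB17, a RAB of epithelial transcytosis, had 4 in siNC replicate 2 alone. RAB14, which acts between the Golgi and endosomes, had 5 and 2 events against 3 and 6. RAB14 lost a 59-base exon at chr9:121193361-121193419 (minus strand) in 1 long-read transcript of each siSTAMBPL1 library and of siNC replicate 1. RAB35 had 6 and 4 against 5 and 10, RAB13 had 3 in every library, and RAB11B and RAB8B stayed between 2 and 4.

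Late endosome and lysosome RABs had 149 distinct events in 7 of 12 genes, 73 and 53 in siSTAMBPL1 against 85 and 78 in siNC libraries. RAB34, which positions lysosomes and takes part in the making of cilia, had the most listed events in sum over the libraries, though RAB5B had more distinct events (62 against 60). RAB34 had 29 and 22 in siSTAMBPL1 replicates 1 and 2, against 39 and 44 in siNC replicates 1 and 2. The groups did not overlap, also after scaling, with a log2 change of -0.29 ± 0.234 (limma adjusted p = 0.765). A 108-base RAB34 exon at chr17:28714793-28714900 (minus strand) was listed as skipped or included in the siNC libraries alone. There it was included by 8 and 8 long-read transcripts and skipped by 1 and 1. A choice between adjacent 3' splice sites 3 bases apart was on all lists. The longer exon was carried by 1 and 0 long-read transcripts in siSTAMBPL1 against 0 and 0 in siNC libraries, and the shorter exon by 0 and 2 against 2 and 4. RAB34 also kept an intron of 844 bases at chr17:28716059-28716902 in 1 and 1 against 2 and 1 long-read transcripts.

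RAB7A, which governs the fusion of late endosomes with lysosomes, had 14 and 6 events in siSTAMBPL1 replicates 1 and 2, against 23 and 12 in siNC replicates 1 and 2. Last exon events were 5 and 0 of these in siSTAMBPL1 and 13 and 6 in siNC libraries. They came from few transcripts, since an additional end is set against each of the other ends. A last exon at chr3:128823718-128825768 (plus strand), 8920 bases beyond the RefSeq end of RAB7A and over no other RefSeq gene, ended 1 long-read transcript in siSTAMBPL1 replicate 1 and 1 in each siNC library. Its end varied by 1 or 2 bases between libraries, so that the same exon was counted as different events. Another last exon lay 50076 bases beyond the RefSeq end, over the pseudogene IFT122P3, in 1 long-read transcript of siNC replicate 1. A 61-base exon of RAB7A at chr3:128795360-128795420 was skipped by 1 long-read transcript in every library and included by 1 and 2 in siSTAMBPL1, against 3 and 1 in siNC libraries. No Ensembl transcript on the lists skipped it between these neighbours.

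RAB29, which recruits the kinase LRRK2 to membranes, had 20 and 16 events in siSTAMBPL1 replicates 1 and 2, against 12 and 14 in siNC replicates 1 and 2. The groups did not overlap, with a log2 change of 0.82 ± 0.255, a limma p of 0.0305 and an adjusted p of 0.631. The change was 0.44 without scaling. A 72-base exon of RAB29 at chr1:205772496-205772567 (minus strand) was included by 4 and 2 long-read transcripts in siSTAMBPL1 against 1 and 2 in siNC libraries, and siNC replicate 1 also held 1 transcript that skipped it. A 3' splice site at 205775091, 5 bases away from the annotated one, was used by long-read transcripts in all 4 libraries. It was joined to the donor at 205775273 by 1 in each siSTAMBPL1 library and to the donor at 205775374 by 1 in each siNC library, and siSTAMBPL1 replicate 1 held another that joined it to another donor. RAB36, a late endosome RAB of the same branch as RAB34, was the only RAB gene with events in both libraries of a group and none in the other, 2 and 1 in siSTAMBPL1 against 0 and 0 in siNC libraries. Its 66-base exon at chr22:23152461-23152526 (plus strand) was included by 1 long-read transcript in siSTAMBPL1 replicate 1. With 3 events in sum, RAB36 was below the minimum of 5 for the fit. RAB24 had 2 and 4 events against 6 and 2, RAB9A had 4 and 2 against 3 and 4, and RAB7B had 2 in every library.

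RABs of regulated secretion had 37 distinct events in 5 of 8 genes, 18 and 8 in siSTAMBPL1 against 20 and 28 in siNC libraries, and their long-read transcripts numbered 4 in siNC replicate 2 and 0 in the other libraries. RAB37 had 10 and 0 events in siSTAMBPL1 against 12 and 7 in siNC libraries. Its log2 change was -1.43 ± 1.28 with all libraries and 0.33 without siSTAMBPL1 replicate 2. RAB26 had 5 events in siNC replicate 2 alone. RAB3D had 1 and 1 events against 1 and 4, RAB27A, which docks exosomes and lysosome-related organelles, had 5 and 5 against 5 and 9, and RAB27B had 2 and 2 against 2 and 3. The remaining 5 genes with events held 80 distinct events, 34 and 26 in siSTAMBPL1 against 26 and 45 in siNC libraries. RAB40C and RAB40B, which carry a SOCS box and join ubiquitin ligases, held most of them. RAB40C had 14 and 14 events in siSTAMBPL1 against 8 and 25 in siNC libraries, so siNC lay on both sides, and RAB40B had 11 and 6 against 10 and 5. A 223-base exon of RAB40B at chr17:82658491-82658713 (minus strand) was included by 3 and 0 and skipped by 0 and 1 long-read transcripts in siSTAMBPL1, against 1 and 1 that included and 0 and 0 that skipped it in siNC libraries. RAB28 had 7 and 3 events against 6 and 5, and RAB42 had 1 in every library. RAB23, a RAB of hedgehog signalling, had 1 and 2 events against 1 and 9, with a log2 change of -0.59 ± 0.906 and 0.52 without siNC replicate 2.

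**Figure D4:**
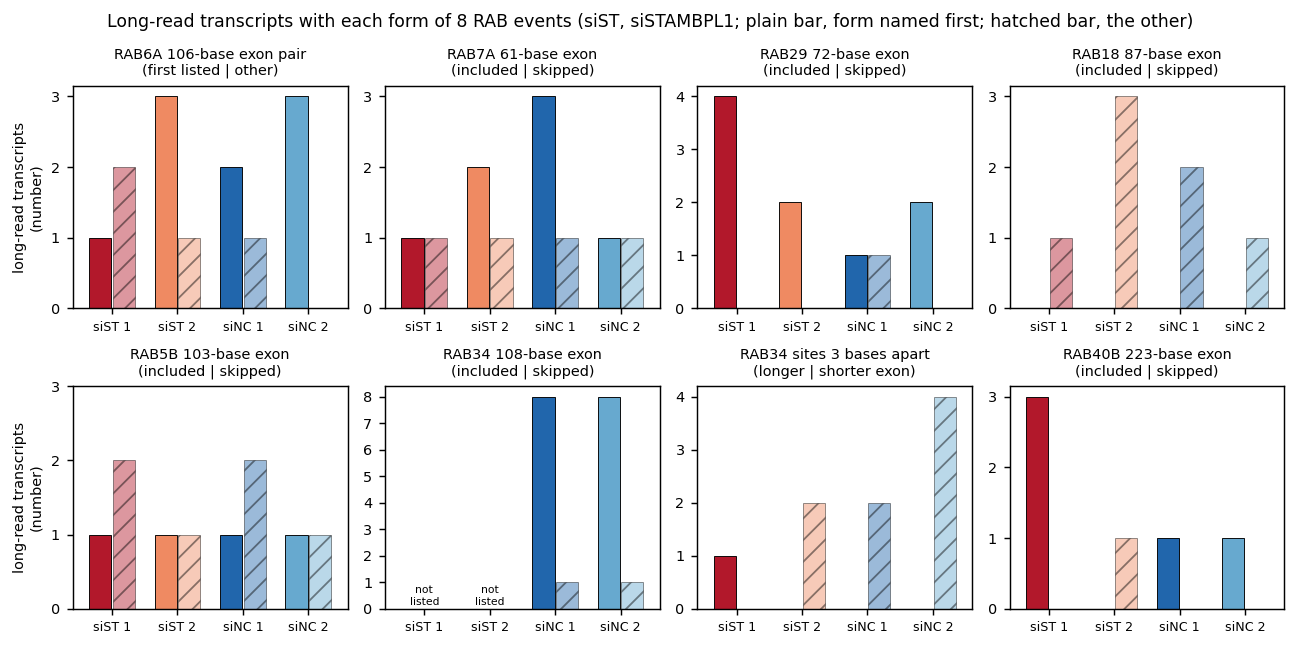
Number of long-read transcripts (y axis) with each form of 8 RAB events in the 4 libraries (x axis, siSTAMBPL1 left of siNC). Plain bars are the form named first in each title and hatched bars the other form, and libraries in which the event is not listed are marked. RAB6A uses both exons of its pair in 3 libraries, and RAB7A lacks its 61-base exon in 1 transcript of every library. Skipping of the RAB34 exon of 108 bases is listed in siNC alone, where 8 transcripts in each library include the exon. The 3' splice site of this exon is also used in siSTAMBPL1 libraries.

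Across the 39 RAB genes that met the minimum of 5 events in sum, no change in the number of events between the groups passed the test. By limma with Benjamini-Hochberg adjustment over 9933 genes, 0 of 39 passed in either direction, and the share of all genes that passed was 0.0% for higher and 0.0% for lower values. At an unadjusted p under 0.05, 2 RAB genes were higher (RAB18 and RAB29, 5.13% of 39, against 2.95% of all genes) and 0 were lower (against 4.37%). Without scaling these counts were 1 and 4, with events that hold a long-read transcript 0 and 1, and where Ensembl knew both forms 0 and 0. The shares of all genes under these settings were not taken, so these counts cannot be read as particular to RAB genes. After scaling, groups did not overlap for 8 RAB genes that were higher in siSTAMBPL1 (20.5%, against 23.0% of all genes). These were RAB5B, RAB6A, RAB6B, RAB7B, RAB11A, RAB13, RAB18 and RAB29. RAB7B and RAB13 had the same number of listed events in every library, so scaling to the smaller siSTAMBPL1 lists alone separated them. Groups did not overlap for 5 that were lower (12.8%, against 15.0%), RAB8A, RAB22A, RAB30, RAB34 and RAB43. In events as listed, RAB18 and RAB29 were higher without overlap (5.13%, against 4.93%), and the same 5 genes were lower (12.8%, against 25.5%). The shares of RAB genes without overlap were thus near or under those of all genes. The median log2 change of the 39 genes was 0.15, with 24 above and 15 below 0, and that of all genes was 0.05. Without scaling the medians were -0.20 and -0.29, so directions are relative to the size of the lists.

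**Figure D5:**
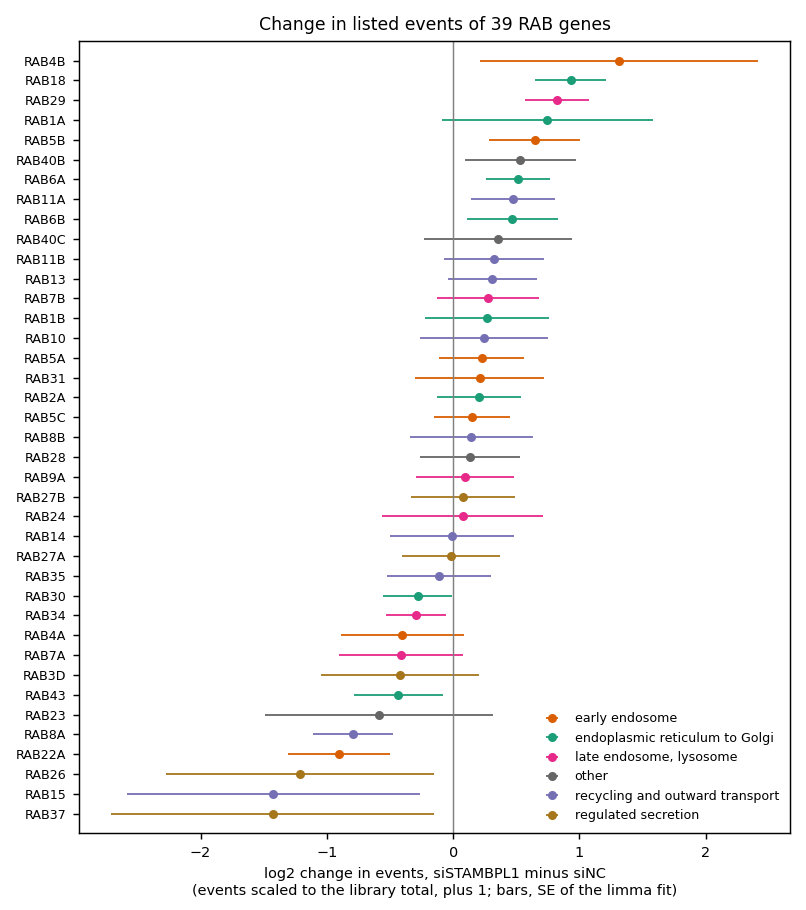
Log2 change in scaled events (siSTAMBPL1 minus siNC, x axis) of the 39 RAB genes in the fit (rows), with the SE of the limma fit as bars, coloured by the step of membrane traffic. RAB18 (0.93) and RAB29 (0.82) lie above 0 and RAB22A (-0.90) and RAB8A (-0.79) below 0 by more than their SE. Several other genes do so too, such as RAB6A, RAB34 and RAB4B. Genes with events in 1 or 3 libraries, such as RAB4B and RAB37, have wide bars, and no gene passes after adjustment.

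Among single events, 6 of the 622 RAB events (0.965%) were on both siSTAMBPL1 lists and on neither siNC list, against 1.09% of all events. Of these, 3 were in RAB29, 2 in RAB6A and 1 in RAB36. On both siNC lists and neither siSTAMBPL1 list were 13 (2.09%, against 3.44% of all events), of which 5 were in RAB34 and 3 in RAB8A. RAB5A, RAB10, RAB14, RAB28 and RAB29 each held 1 of them.

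The proteins that act on RABs were described by lists of genes in the same fit. Of 7 genes for prenylation and GDP dissociation inhibition, 5 were tested, with 2 above and 3 below 0 and a median of -0.04. RABGGTA, a subunit of the RAB prenyltransferase, had 19 and 16 events in siSTAMBPL1 against 24 and 27 in siNC libraries (log2 change -0.13). GDI2, which extracts RABs from membranes, had 12 and 12 events against 16 and 14. The RAB escort proteins CHM and CHML had 4 and 2 against 6 and 2, and 2 and 2 against 2 and 4. Of 49 exchange factors 41 were tested, with 22 above and 19 below 0 and a median of 0.02. DENND1C had 0 and 0 events in siSTAMBPL1 against 5 and 0 in siNC libraries, DENND6A had 0 and 1 against 3 and 2, and RIC1, which activates RAB6A, had 2 and 6 against 2 and 1. TRAPPC12, a TRAPP subunit, had 29 and 18 events against 17 and 17 (log2 change 0.80). Of 40 GTPase activating proteins 34 were tested, with 23 above and 11 below 0 and a median of 0.18. TBC1D2B had 10 and 10 events in siSTAMBPL1 against 6 and 5 in siNC libraries, without overlap (log2 change 1.13), and TBC1D22B had 5 and 2 against 1 and 1 (log2 change 1.34). TBC1D32 and EVI5 had events in 1 siSTAMBPL1 library alone, 7 in replicate 2 and 5 in replicate 1. Of 40 effectors 28 were tested, with 20 above and 8 below 0 and a median of 0.19. RPH3AL, an effector of secretory RABs, had 6 and 8 events in siSTAMBPL1 replicates 1 and 2, against 45 and 44 in siNC replicates 1 and 2 (log2 change -2.14 ± 0.336, limma adjusted p = 0.391). EHBP1L1, an effector of RAB8 in epithelial transport, had 0 and 0 events against 4 and 5 (limma adjusted p = 0.477). SYTL2, a RAB27 effector, had 19 events in siSTAMBPL1 replicate 2 alone, and SYTL3 had 4 and 3 events against 3 and 0. No gene of the 4 lists passed the adjusted threshold, as none of all 9933 genes did. At an unadjusted p under 0.05, prenylation had 0 and 0 genes (higher and lower), exchange factors 1 and 1, activating proteins 2 and 0 and effectors 1 and 2, where 2.95% and 4.37% of all genes did. Over the 4 lists these are 4 higher and 3 lower, and without scaling they were 3 and 11. The share of all genes without scaling was not taken, and the median log2 change of all genes was then -0.29. The 11 lower genes thus cannot be read as particular to these lists.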

How the data were processed

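The authors deposited 1 list of splicing events per library, whose columns hold identifiers and no quantity. Per the file headers, the columns are gene, event identifier and the transcripts with the first or with either form. Per the submitters' processing notes, coordinates are of hg38. Aligner and callers of transcripts and events were not given in the sources used here. Every listed event without a long-read transcript held an Ensembl transcript found in no unlisted annotated event of that library (0 exceptions).

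Ensembl genes were named by position and strand from RefSeq genes of GRCh38.p14 (60% of event positions within 50 bases of the gene, 10% of the gene covered, best score at least 1.5 times the next), and 11156 of 11931 received 1 symbol. Positions relative to coding sequence were not analysed. Events per gene were scaled to the library total and fitted with limma 3.58.1 in R 4.3.3 as log2(scaled events + 1), with a trend and no covariate, for 9933 genes with at least 5 events. The scale understates changes of genes with few events. The script was tested on simulated data.

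Members and lists were chosen with earlier results of these data known. Values in every library are given for the 10 RAB genes with most distinct events, up to 8 in each direction by log2 change, those with events or exons on both lists of 1 group alone, and up to 4 of each regulator list by log2 change. Alternatives were other scalings, pseudocounts, filters and event sets, and each library left out.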

Additional observations from a re-analysis of the deposited data

How the results depend on the processing

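The count of RAB genes that passed the adjusted threshold was 0 in the limma fit and in each of these alternatives: no scaling, scaling by long-read transcripts or by upper quartile, a pseudocount of 0.5, no filter, at least 20 events, events with a long-read transcript, Ensembl transcripts in both forms (11 of all genes passed), long-read transcripts per gene, and each library left out. For regulators and effectors it was 0 without scaling, with long-read events and with each library left out. Genes below a minimum had no value under that setting. Median log2 change of all genes was -0.29 without scaling and 0.22 with scaling by long-read transcripts, against 0.05. The replicate numbers are shared between the groups, and the labels do not say whether libraries of the same number were paired. The correlation of their deviations from the group means was 0.02 over 9933 genes, which cannot show whether they were prepared together. With the replicate block, 0 RAB genes passed, also at an unadjusted p under 0.05. With Ensembl transcripts in both forms, 2 genes turned sign, RAB43 (0.12) and RAB1A (-0.20), and the difference in share was -1.57 points for first exons (3.27 with all events), -0.47 for last exons, -0.61 for 3' splice sites (-1.25) and 0.92 for 5' splice sites (2.34). With long-read events alone it was 4.37 for first exons. The cause was not tested.

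With each library left out, the ratio of RAB events ranged from 0.676 to 0.968, and the share of RAB events with a long-read transcript differed by -4.15 to 2.35 points. Ranges of the differences in type were 2.61 to 3.94 for first exons, -6.89 to -3.38 for last exons, -0.16 to 6.12 for skipped exons, -1.54 to -0.95 for 3' splice sites, 1.67 to 3.01 for 5' splice sites, -2.62 to -0.62 for retained introns and -1.33 to 0.16 for mutually exclusive exons. Of the 16 genes with the largest log2 changes, the only ones for which this was run, those that turned sign were RAB37 (-3.20 to 0.33), RAB23 (-1.69 to 0.52), RAB3D (-1.03 to 0.20, which was without siNC replicate 2) and RAB1A (-0.37 to 1.83). RAB18 lay at 0.92 to 0.95 and RAB29 at 0.73 to 0.91, and RAB29 was at 0.44 where Ensembl knew both forms. RAB40B ranged from 0.09 to 0.96. The ratio without RAB34 was 0.854, an alternative chosen after seeing the data, as was leaving out RAB7A. Read depth is unknown, so an event missing from a list may have been below detection.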

Other observations

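A few long-read events over RAB genes were not joined to an Ensembl gene on the lists and are in none of the numbers above. Over RAB9A, a late endosome RAB on the X chromosome, siNC replicate 1 listed 3 such events between 13689288 and 13735248 and siNC replicate 2 listed 1 between 13703902 and 13715720. Over RAB5B, siNC replicate 1 listed 1 between 55971247 and 55986869. Neither siSTAMBPL1 library listed such an event over a RAB gene.

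RAB genes without an event on any list numbered 19 of 64. They include RAB21 of early endosomes, RAB12 and RAB25 of recycling, RAB32 and RAB38 of lysosome-related organelles, and RAB3A, RAB3B and RAB3C of neuronal and endocrine secretion. Long-read transcripts were found in all 4 libraries for 16 RAB genes and in none for 7 of the 45 genes with events.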
